A study of Rattus norvegicus with 15 samples.

Results

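A set of 1170 circular RNAs (circRNAs) in rat whole blood was present in 13 of 15 libraries and listed at 0 in the other 2, sham replicate 2 and 1 h replicate 1. These members were chosen by that pattern alone, from a table of 43472 circRNAs, of which they are 2.69%. The values that chose them were the zeros in the 2 libraries and a value above 0 in each of the 13. Their absence from the 2 libraries is therefore a description and carries no test. The study concerned deep venous thrombosis (DVT), in which a deep vein is blocked by a clot. Blood came from male rats of the outbred Sprague-Dawley stock, aged 6 to 8 weeks and weighing 250 to 300 g. There were 3 libraries in each of 5 groups: sham (labelled 0 h), and 4 times after DVT modelling, which were 1 h, 6 h, 12 h and 3 d (72 h). The labels name no genotype or drug, and whether each library of a group is another animal is not stated. The p-values below therefore rest on spread between libraries, which may be technical, and not on a known spread between animals.

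CircRNAs are closed loops made by back-splicing, in which a splice donor joins an acceptor that lies upstream of it. They lack free ends, resist exonucleases and can build up in cells that no longer transcribe, and blood, with its enucleate red cells and platelets, is known to be rich in them. A circRNA is recognised in sequencing only by the reads that cross its back-splice junction, which are few next to the reads of the linear RNA from the same gene. In whole blood, fewer cells of a type and less RNA per cell cannot be told apart.

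Values are SRPBM, back-spliced reads per 1e9 mapped reads of the library. All values above 0 were whole multiples of the value of 1 read (100% within 0.01 read), with 2 reads as the smallest, so the reads behind each value could be recovered. A value of 0 is given as listed at 0, since the table holds no value below 2 reads. The table names circRNAs by running number and pairs them with no gene, coordinate or sequence, so members are given by that number, and neither a host gene nor a marker of blood cells could be looked up. With M for 1e6, the 13 libraries had 69.3 to 92.4 M mapped reads and listed 9354 to 15366 circRNAs each. Sham replicate 2 listed 2958 from 66.0 M and 1 h replicate 1 listed 2551 from 73.3 M. Titles of the 9 sham, 1 h and 3 d samples start with a prefix that ends in A&B, and those of the 6 samples at 6 h and 12 h with one that ends in C. The meaning of these prefixes is not stated. Time and prefix cannot be told apart where 6 h or 12 h is set against sham.

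The members were the largest share of the circRNAs found in all 13 libraries. Of 2880 such circRNAs, 1170 (40.6%) were at 0 in both of the 2 libraries, 370 were at 0 in sham replicate 2 only, 454 were at 0 in 1 h replicate 1 only and 886 were above 0 in both and so in all 15. In each of the 13 libraries, 1 to 15 circRNAs were at 0 there and above 0 in the other 14. That count requires listing in both sham replicate 2 and 1 h replicate 1, so it is not comparable with the 370 and 454. Among circRNAs at 0 in both of these, more were missing from only 1 of the 13. They ranged from 15 for 12 h replicate 2 to 132 for sham replicate 1.

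Among the circRNAs above 0 in all 13 libraries, the members were of low to middle abundance. They lay above the middle of what a library lists. The median listed circRNA had 6 to 7 reads in each of the 13 libraries, and the members' median was 9 to 23 reads. Over the 13 libraries the median member had a median level of 191 SRPBM (quartiles 130 and 290), equal to 16 reads. The 886 circRNAs above 0 in all 15 libraries had 755 SRPBM (quartiles 379 and 1619), equal to 65 reads. Only 6.09% of those 886 lay below the median member, and 85.1% lay above the members' upper quartile. The ranges still overlapped widely, since 675 of the 886 fell between the lowest member at 45.3 SRPBM and the highest at 1677 SRPBM. The circRNAs missing from just 1 of the 2 libraries were in between, at 283 SRPBM where sham replicate 2 was at 0 and 289 SRPBM where 1 h replicate 1 was. These levels are described without a test, because the rule uses values of the same 13 libraries.

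**Figure D1:**
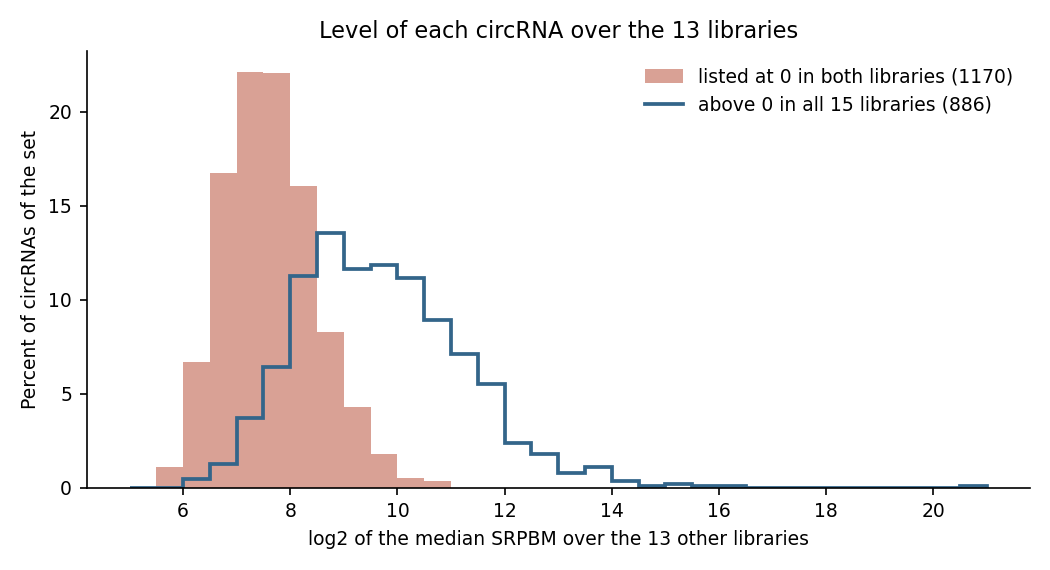
Distribution of circRNA levels, with log2 of each circRNA's median SRPBM over the 13 libraries on the x axis and the percent of the set on the y axis, for the 1170 members (filled) and the 886 circRNAs above 0 in all 15 libraries (line). The members sit to the left, with a median of 191 against 755 SRPBM, and the 2 sets overlap.

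The members' median lay below that of the 886 in each of the 13 libraries. In these 13 libraries the members' median ran from 102 to 274 SRPBM and that of the 886 from 580 to 1092 SRPBM. The ratio of the 2 medians averaged 0.257 ± 0.044 (SD, n = 13), with the lowest value, 0.161, in sham replicate 1 and the highest, 0.310, in sham replicate 3, so the libraries of 1 group were the extremes. With means in place of medians the ratio was 0.0605; the 886 reach up to a median of 1988100 SRPBM, the members up to 1677. The 10 circRNAs with the highest means of the table held 0 members. The members carried 0.873% to 4.69% of the whole circRNA signal in the 13 libraries. Without these 10 they carried 8.71% to 12.5%, and the 886 carried 46.1% to 54.8%. The members made up 7.61% to 12.5% of the circRNAs listed.

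Among circRNAs above 0 in all 13 libraries, listing in the 2 libraries followed abundance. Those with a median under 8 reads were at 0 in both libraries in 75% of cases (81 of 108). The share fell to 67.6% at 8 to under 16 reads (468 of 692), 48.1% at 16 to under 32 (448 of 932), 25.4% at 32 to under 64 (142 of 560) and 8.52% at 64 to under 128 (27 of 317). At 128 reads or more it was 1.48% (4 of 271). Most members, 40.0% and 38.3%, came from the classes of 8 to under 16 and 16 to under 32 reads. The trend covers circRNAs above 0 in all 13 libraries only. Over the whole table, circRNA signal was 3.05 M SRPBM in sham replicate 2 and 1.62 M in 1 h replicate 1, against 7.80 to 36.3 M in the 13. Without the 10 circRNAs with the highest means it was 1.70 M and 0.886 M, against 1.92 to 3.74 M.

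**Figure D2:**
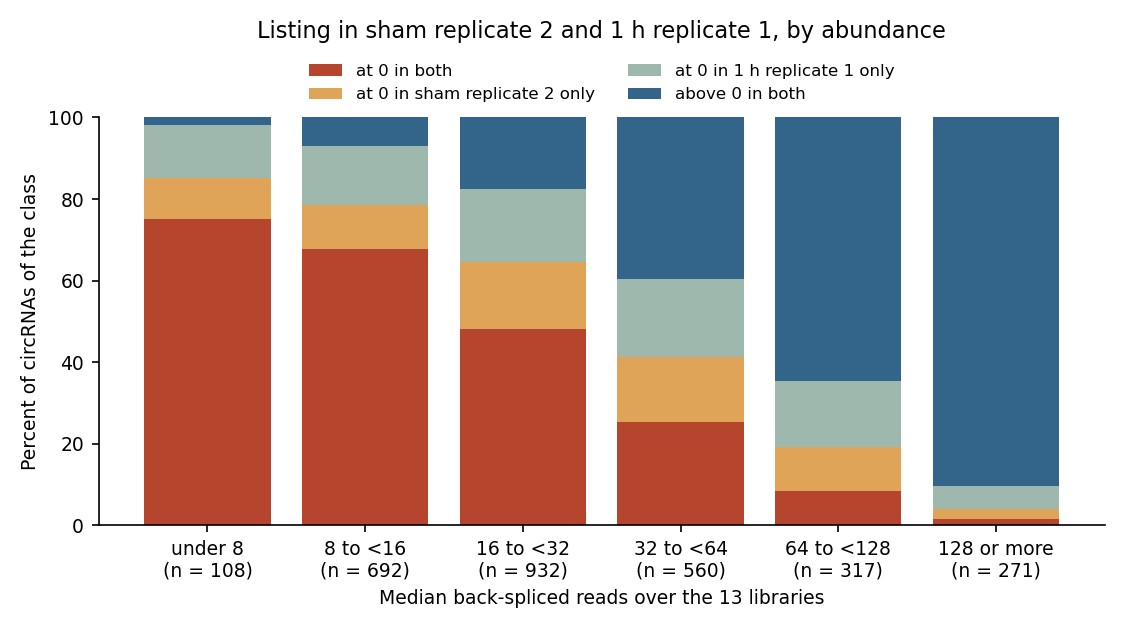
CircRNAs above 0 in all 13 libraries, in 6 classes by their median back-spliced reads (x axis), with the percent of each class (y axis) at 0 in both of the 2 libraries, in only one of them, or in neither. The share at 0 in both falls from 75% in the lowest class to 1.48% in the highest.

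The reads that a member's usual level would be worth in the 2 libraries were more than the table's minimum of 2. At its median SRPBM over the 13 libraries, the median member would correspond to 12.6 reads in sham replicate 2 (quartiles 8.57 and 19.1, highest 111) and to 14.02 reads in 1 h replicate 1 (quartiles 9.52 and 21.2, highest 123). That level was worth at least 10 reads for 766 members (65.5%) in sham replicate 2 and for 831 (71.0%) in 1 h replicate 1, and under 2 reads for 0 members in either.

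CircRNAs of the same abundance that were listed in the 2 libraries were mostly above the minimum of the table. Being listed selects higher values, so their reads are a description and are not comparable with the level of the whole class. In the class of 8 to under 16 reads, 78.5% were at 0 in sham replicate 2, and the 149 listed there had a median of 13 reads, with 2 or 3 reads in 3 of them. In 1 h replicate 1 the same class was at 0 in 82.2%, and the 123 listed had a median of 9 reads, with 2 or 3 reads in 9 of them. In the classes from 16 reads up, the listed circRNAs had medians of 16, 26, 43 and 112.5 reads in sham replicate 2 and 11, 15, 24 and 61 reads in 1 h replicate 1, higher in each next class. The 886 circRNAs listed everywhere stood in sham replicate 2 at a median of 0.835 times their usual level (quartiles 0.459 and 1.56) and in 1 h replicate 1 at 0.460 times (0.228 and 0.836). What set the 2 libraries apart was not tested.

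The most abundant members show the gap most plainly. CBT15_circR_5781 had the highest median, 1677 SRPBM (140 reads), and lay between 1162 and 2575 SRPBM in the 13 libraries. CBT15_circR_37306 had a median of 1667 SRPBM and ran from 632 in sham replicate 1 to 2437 in 6 h replicate 3. CBT15_circR_33026 had a median of 1577 SRPBM, with 959 in sham replicate 1 and 2696 in 12 h replicate 2 as its extremes. These 3 never had fewer than 56 reads in the 13 libraries and were listed at 0 in the other 2. CBT15_circR_24565 (1544 SRPBM) and CBT15_circR_12575 (1412 SRPBM) completed the highest 5. In all, 11 members had a median above 1000 SRPBM, and the 10 highest members held 4.76% of the members' summed signal.

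At the other end, CBT15_circR_19555 had a median of 45.3 SRPBM, from 2 to 9 reads, and CBT15_circR_13897 one of 47.5 SRPBM, from 2 to 20 reads. In 170 members (14.5%) the lowest of the 13 libraries held just 2 reads, the smallest value the table lists, against 11 (1.24%) of the 886. Just outside the rule were 666 circRNAs at 0 in the 2 libraries and in 1 of the 13, with a median of 102 SRPBM (9 reads). Of these, 132 were missing from sham replicate 1 and 117 from 3 d replicate 2, and 15 to 66 from each of the other 11 libraries. CBT15_circR_38973 was the most abundant among them, with a median of 475 SRPBM and 0 in 1 h replicate 3, followed by CBT15_circR_777, with 462 SRPBM and 0 in 6 h replicate 1. On the other edge, CBT15_circR_2234 and CBT15_circR_3104 were at 0 in sham replicate 2 but had 2 reads (27.3 SRPBM) in 1 h replicate 1, with medians of 167 and 394 SRPBM over the 13.

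The members varied widely between libraries. The median member differed 6.23-fold between its highest and lowest of the 13 libraries (quartiles 4.35 and 8.77, range 1.92 to 53.7). Its SD of log2 SRPBM over the 13 libraries was 0.77, against 0.56 for the median of the 886, which rest on more reads. Within groups the median SD was 0.75, and 0.67 after subtracting each library's member median, which takes out shifts of whole libraries. Counting error at the members' reads alone would give 0.40. The steadiest members were CBT15_circR_19591, between 414 and 816 SRPBM (SD of log2 0.31), and CBT15_circR_22954, between 395 and 758 SRPBM (0.33). The most variable were CBT15_circR_40664, between 23.9 and 709 SRPBM (1.61), and CBT15_circR_4854, between 55.7 and 1767 SRPBM (1.60), both described below.

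Over the time course the groups overlapped in the members' overall level. The members' median level per library averaged 155 ± 75.8 SRPBM in sham (SD, n = 2), 213 ± 33.0 at 1 h (n = 2), 221 ± 46.2 at 6 h, 208 ± 54.7 at 12 h and 179 ± 20.1 at 3 d (n = 3 each). The 2 sham libraries differed most, with 102 SRPBM in replicate 1 and 209 in replicate 3, and this span overlapped all the other groups. The other values were 190 and 236 at 1 h, 195, 193 and 274 at 6 h, 212, 261 and 152 at 12 h, and 167, 167 and 202 at 3 d. The 3 libraries with the highest member medians (6 h replicate 3, 12 h replicate 2 and 1 h replicate 3) were also the 3 that listed the most circRNAs (14900, 14523 and 15366). Sham replicate 1, with the lowest, listed 9583. The part of detection in the members' levels was not tested.

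**Figure D3:**
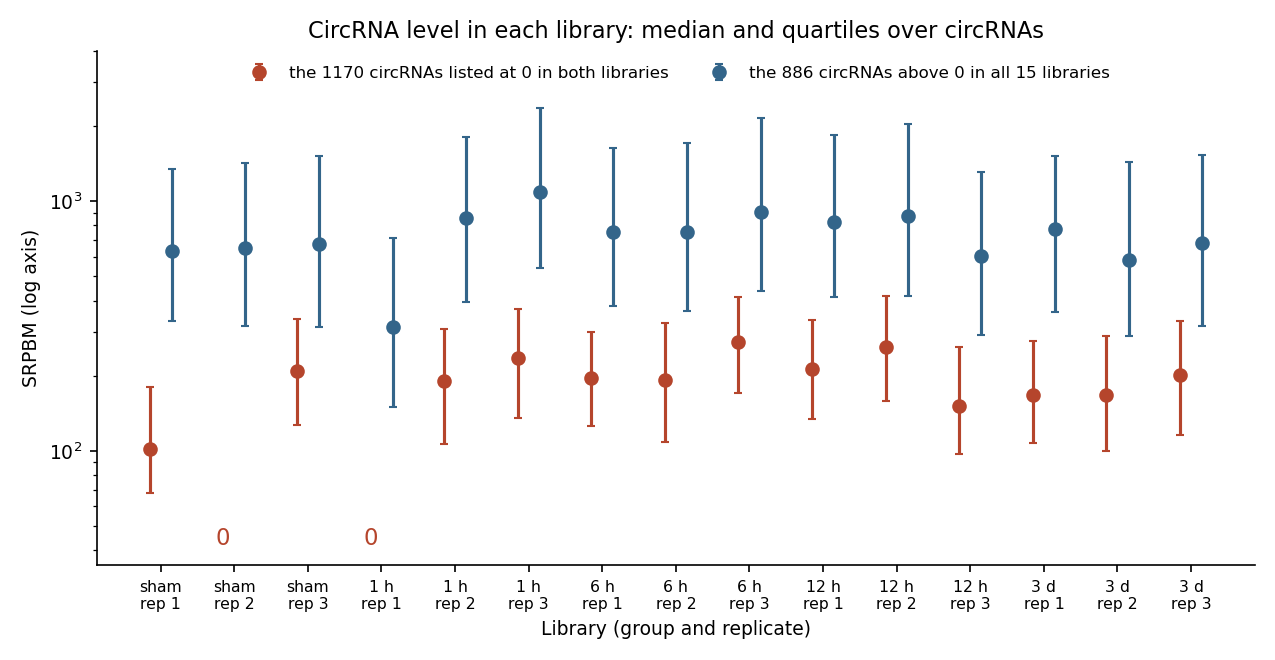
Level in each of the 15 libraries (x axis), as SRPBM on a log axis: the dot is the median over circRNAs and the bar spans the quartiles, for the 1170 members (red) and the 886 circRNAs above 0 in all 15 libraries (blue). The members are at 0 in sham replicate 2 and 1 h replicate 1 by rule, and their medians in the other 13 lie between 102 and 274 SRPBM, lowest in sham replicate 1.

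The group with the highest mean is given as a description, since some group is always highest and sham and 1 h rest on 2 libraries each. The highest group mean fell at 1 h for 387 members (33.1%), at 6 h for 307 (26.2%), at 12 h for 251 (21.5%), at 3 d for 159 (13.6%) and in sham for 66 (5.64%). Among the 886, 51.9% were highest at 1 h and 5.19% at 3 d. Sham held the lowest group mean of 464 members (39.7%) and of 34.0% of the 886. By library, sham replicate 1 alone was the lowest of the 13 for 382 members (32.6%), against 4.44% for sham replicate 3.

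Groups were compared per circRNA with limma, a linear model whose error is moderated across all circRNAs, on log2(SRPBM + 23.0). It was fitted to the 13 libraries, because the rule had set the other 2 to 0. A fit with all 15 libraries is counted among the alternatives below. That fit holds the zeros that chose the members, so its outcome for a member is not independent of the rule. It counts neither for nor against a call. The 1170 members all passed the filter of at least 3 libraries above 0, which they do by rule. Adjusted p-values are Benjamini-Hochberg values over all 16593 circRNAs tested, and a call is an adjusted p under 0.05. Through a trend, the error of a circRNA is drawn strongly towards that of circRNAs of like abundance. A p-value below thus rests mostly on their spread and little on that of the circRNA's own libraries. Without this trend limma called 0 members in each comparison below, with 5 to 53 at an unadjusted p under 0.05, so each call of a member was lost without it.

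A difference anywhere among the 5 groups was called for 1 member of 1170 (0.0855%), CBT15_circR_4854. The background was 0.603% of all circRNAs tested (100 of 16593). Of the 886, 1.13% were called, and of the 2880 above 0 in all 13 libraries, 0.521%. At an unadjusted p under 0.05 were 48 members (4.10%), against 13.8% of the 886, 7.47% of the 2880 and 6.6% of all circRNAs tested. The count rested on single libraries: leaving out sham replicate 3 gave 120, 1 h replicate 2 gave 30 and 1 h replicate 3 gave 27. Below the called member in order of p came CBT15_circR_38821, CBT15_circR_40664 and CBT15_circR_5500, with limma adjusted p = 0.0964, 0.119 and 0.158. The first was called without 12 h replicate 2 (0.0274) and with 10 times the pseudocount (0.00301), the second with 10 times the pseudocount (0.0357).

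CBT15_circR_4854 was low in sham, high at 6 h and 12 h, and low or middling at 3 d. Its sham libraries were at 113 and 58.0 SRPBM, followed by 332 and 586 at 1 h, 1137, 833 and 853 at 6 h, 772, 1767 and 422 at 12 h, and 466, 55.7 and 188 at 3 d. The 6 libraries at 6 h and 12 h did not overlap with sham, and 3 d replicate 2 lay below both sham libraries. These 6 are also the C libraries, so time and prefix cannot be told apart in its high values. It rested on 5 to 156 reads. By limma it differed among the groups with adjusted p = 1.99e-05. That call was lost with a pseudocount of 1 SRPBM (adjusted p = 0.226), without the trend (0.442), with all 15 libraries (0.0549) and with voom on the recovered reads (0.106), and held in the other 20 of 24 alternatives.

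The comparison of 1 h with sham, both in the A&B libraries, asked what differed earliest after modelling. The members' median log2 change was 0.39 (quartiles -0.04 and 0.81), beside 0.29 over all circRNAs tested and 0.50 over the 886. It was 0.02 with median-ratio scaling and -0.07 with scaling to the circRNA signal without the 10 highest circRNAs, where the median of all circRNAs was 0.02 and 0. Leaving out sham replicate 1 gave -0.06 and leaving out sham replicate 3 gave 0.76. Limma called 1 member (0.0855%), a higher one, beside 0.217% of all circRNAs tested in either direction and 0.199% higher. At an unadjusted p under 0.05 there were 55 members (4.70%), against 6.76% of all circRNAs tested. Leaving out sham replicate 3 raised that count to 144, and leaving out 1 h replicate 3 gave 22.

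CBT15_circR_2452 was the called member at 1 h. Its sham libraries held 192 and 209 SRPBM and its 1 h libraries 831 and 1734, so the 2 groups did not overlap. It rose by a log2 change of 2.46 (SE 0.61) with limma adjusted p = 0.0383. It was at 448, 314 and 707 SRPBM at 6 h, 548, 623 and 314 at 12 h, and 514, 290 and 793 at 3 d, all above sham and below 1 h. The call held in 11 of 24 alternatives (adjusted p from 0.0137 to 1, the highest with all 15 libraries). It was lost without sham replicate 1 (0.214) or 3 (0.200), 1 h replicate 2 (0.105) or 3 (0.982), or 12 h replicate 1 (0.0696), and with median-ratio scaling (0.174). CBT15_circR_42581 was next: sham 203 and 429 SRPBM, 1 h 1234 and 1655 SRPBM (log2 change 2.18, limma adjusted p = 0.104). It was called with 10 times the pseudocount (adjusted p = 0.0266) and with voom (0.0264). In the other direction, CBT15_circR_12572 had 124 and 255 SRPBM in sham against 23.7 and 22.5 SRPBM, 2 reads each, at 1 h (limma adjusted p = 0.554). CBT15_circR_32988 had 181 and 476 SRPBM in sham against 119 and 45.0 SRPBM at 1 h (limma adjusted p = 0.565).

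At 6 h against sham the members' median log2 change was 0.43 (quartiles 0.04 and 0.79), beside 0.29 over all circRNAs tested and 0.29 over the 886. That median became -0.04 when sham replicate 1 was left out, 0.85 when sham replicate 3 was, and 0.12 with median-ratio scaling. Limma called 1 member (0.0855%), CBT15_circR_4854, beside a background of 0.145% in either direction and 0.133% higher. At an unadjusted p under 0.05 were 66 members (5.64%), against 7.90% of the 886, 6.63% of the 2880 and 5.21% of all circRNAs tested. The number became 25 when sham replicate 1 was left out, 205 when sham replicate 3 was and 32 when 6 h replicate 3 was, and 34 with median-ratio scaling, so it does not set the members apart from the background. The log2 change of CBT15_circR_4854, from the values above, was 3.19 (SE 0.60, limma adjusted p = 0.000599). It rose, but time and prefix cannot be told apart. Of 24 alternatives 18 kept the call; among the libraries left out, sham replicate 3 ended it (adjusted p = 0.111). CBT15_circR_5500 was next, with 67.7 and 174 SRPBM in sham, all below the 586, 495 and 621 SRPBM at 6 h. Its log2 change was 2.14 (SE 0.58) with limma adjusted p = 0.135, and 0.0458 when sham replicate 3 was left out. On the lower side, CBT15_circR_23380 had 226 and 209 SRPBM in sham against 68.9, 60.3 and 48.7 SRPBM at 6 h. CBT15_circR_31076 had 316 and 394 SRPBM against 80.4, 84.5 and 268 SRPBM (limma adjusted p = 0.927 for both).

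At 12 h against sham the members' median log2 change was 0.37 (quartiles -0.02 and 0.73), beside 0.22 over all circRNAs tested and 0.19 over the 886. Leaving out sham replicate 1 turned it to -0.07, leaving out sham replicate 3 gave 0.76 and median-ratio scaling 0.13. CBT15_circR_4854 was again the called member (0.0855% of members, background 0.121%, all of it higher), with a log2 change of 3.03 (SE 0.60, limma adjusted p = 0.00103). Of 24 alternatives 15 kept this call; leaving out sham replicate 1 (adjusted p = 0.0631), sham replicate 3 (0.143) or 12 h replicate 2 (0.177) ended it. At an unadjusted p under 0.05 were 59 members (5.04%), against 6.21% of the 886, 5.52% of the 2880 and 4.4% of all circRNAs tested. Leaving out sham replicate 1 gave 25, sham replicate 3 gave 205, and 12 h replicates 1, 2 and 3 gave 34, 30 and 93, while scaling to total circRNA signal gave 8. This share too does not set the members apart. CBT15_circR_5500 was at 537, 510 and 682 SRPBM at 12 h (log2 change 2.15, limma adjusted p = 0.141). On the lower side, CBT15_circR_31076 was at 55.9, 136 and 292 SRPBM while CBT15_circR_18574 was at 44.7, 45.3 and 43.3 SRPBM against 56.4 and 406 in sham (limma adjusted p = 0.957 for both).

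At 3 d against sham, within the A&B libraries, limma called 0 members and voom also called 0. The background was 0.0422% of all circRNAs tested. At an unadjusted limma p under 0.05 were 34 members (2.91%), against 4.06% of the 886, 3.23% of the 2880 and 4.05% of all tested. The count was 137 without sham replicate 3 and 4 with scaling to total circRNA signal. The members' median log2 change was 0.21 (quartiles -0.16 and 0.58), beside 0 over all circRNAs tested and 0.03 over the 886. It turned to -0.24 without sham replicate 1 and to -0.07 with scaling to the total circRNA signal, and was 0.61 without sham replicate 3. CBT15_circR_8036 had the smallest p: it was at 22.6 SRPBM (2 reads) and 69.6 SRPBM in sham and 537, 290 and 274 SRPBM at 3 d. Its 3 d libraries were all above sham, with a log2 change of 2.52 (SE 0.68) and limma adjusted p = 0.200. It lay between 94.9 and 414 SRPBM at the other times. CBT15_circR_22048 had 169 and 46.4 SRPBM in sham against 585, 334 and 447 SRPBM at 3 d (limma adjusted p = 0.637). On the lower side, CBT15_circR_26799 had 169 and 336 SRPBM in sham against 35.8, 167 and 43.3 SRPBM at 3 d. CBT15_circR_17801 had 305 and 209 SRPBM against 35.8, 66.9 and 202 SRPBM (limma adjusted p = 1 for both). These 4 comparisons share the 2 sham libraries, so their shifts are not independent.

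**Figure D4:**
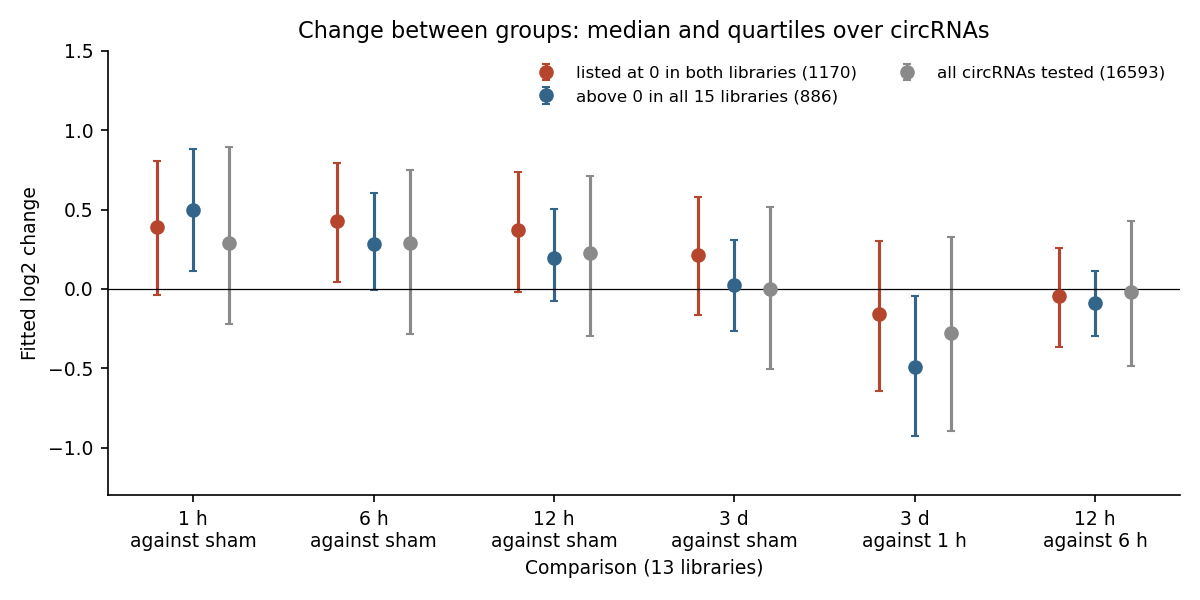
Fitted log2 change (y axis) in each of the 6 comparisons (x axis) over the 13 libraries, as the median (dot) and quartiles (bar) over circRNAs, for the 1170 members (red), the 886 circRNAs above 0 in all 15 libraries (blue) and all 16593 tested (grey). The members' medians lie between -0.16 and 0.43; those against sham turn to between -0.24 and -0.04 without sham replicate 1.

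The late time, 3 d, was compared with the early time, 1 h, within the A&B libraries. The members' median log2 change was -0.16 (quartiles -0.64 and 0.30), beside -0.28 over all circRNAs tested and -0.49 over the 886. It turned to 0.12 with median-ratio scaling, where all circRNAs tested had -0.09, and to 0.24 with scaling to the signal without the 10 highest. Limma called 3 members lower at 3 d and 0 higher (0.256%), beside a background of 0.392% in either direction and 0.337% lower. Of the 886, 1.35% were called, and of the 2880, 0.590%. At an unadjusted p under 0.05 were 71 members (6.07%), against 21.1% of the 886, 11.3% of the 2880 and 9.33% of all circRNAs tested. It fell to 31 members without 1 h replicate 3, and scaling to total circRNA signal gave 163. With the replicate number as a block it called 1.

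CBT15_circR_34379 fell from 1293 and 1880 SRPBM at 1 h to 502, 268 and 289 at 3 d (log2 change -2.13, SE 0.53, limma adjusted p = 0.0320). In sham it was at 609 and 510 SRPBM, at 6 h between 350 and 670 and at 12 h between 487 and 693, so both 1 h libraries stood above all the others. Of 24 alternatives 12 kept the call (adjusted p from 0.00436 to 1, the highest with all 15 libraries). It was lost without sham replicate 3 (0.0533), 1 h replicate 2 (0.210) or 3 (0.764), 12 h replicate 1 (0.0522), or 3 d replicate 2 (0.121) or 3 (0.112), and with median-ratio scaling (0.122).

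CBT15_circR_38821 was also highest at 1 h, at 1103 and 1058 SRPBM. It was at 79.0 and 278 SRPBM in sham, 126, 278 and 268 at 6 h, 157, 623 and 32.5 at 12 h, and 203, 78.0 and 260 at 3 d. It fell from 1 h to 3 d with log2 change -2.57 (SE 0.67, limma adjusted p = 0.0472), a call that held in 5 of 24 alternatives and only without 12 h replicate 3 or 3 d replicate 3 among the libraries left out. Its adjusted p was 0.0665 with the replicate block, 0.172 with median-ratio scaling and 0.0514 to 0.654 without each of the other 11 libraries in turn. It was described here as the third called member, outside the rule that names 2 in each direction.

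CBT15_circR_40664 lay at 344 and 709 SRPBM at 1 h and at 23.9, 33.4 and 115 at 3 d, the first of these equal to 2 reads (log2 change -2.86, SE 0.75, limma adjusted p = 0.0459). It was at 45.1 and 487 SRPBM in sham, so the sham libraries spanned most of its range. Its call also held in 5 of 24 alternatives, among libraries left out only without 6 h replicate 2 or 3 or 3 d replicate 3. Its adjusted p was 0.0811 with the replicate block, 0.156 with median-ratio scaling and 0.0626 to 0.843 without each of the other 10 libraries. On the higher side, CBT15_circR_32988 went from 119 and 45.0 SRPBM at 1 h to 418, 290 and 519 at 3 d (adjusted p = 0.153). CBT15_circR_18772 went from 119 and 214 SRPBM to 478, 580 and 981 (adjusted p = 0.164).

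**Figure D5:**
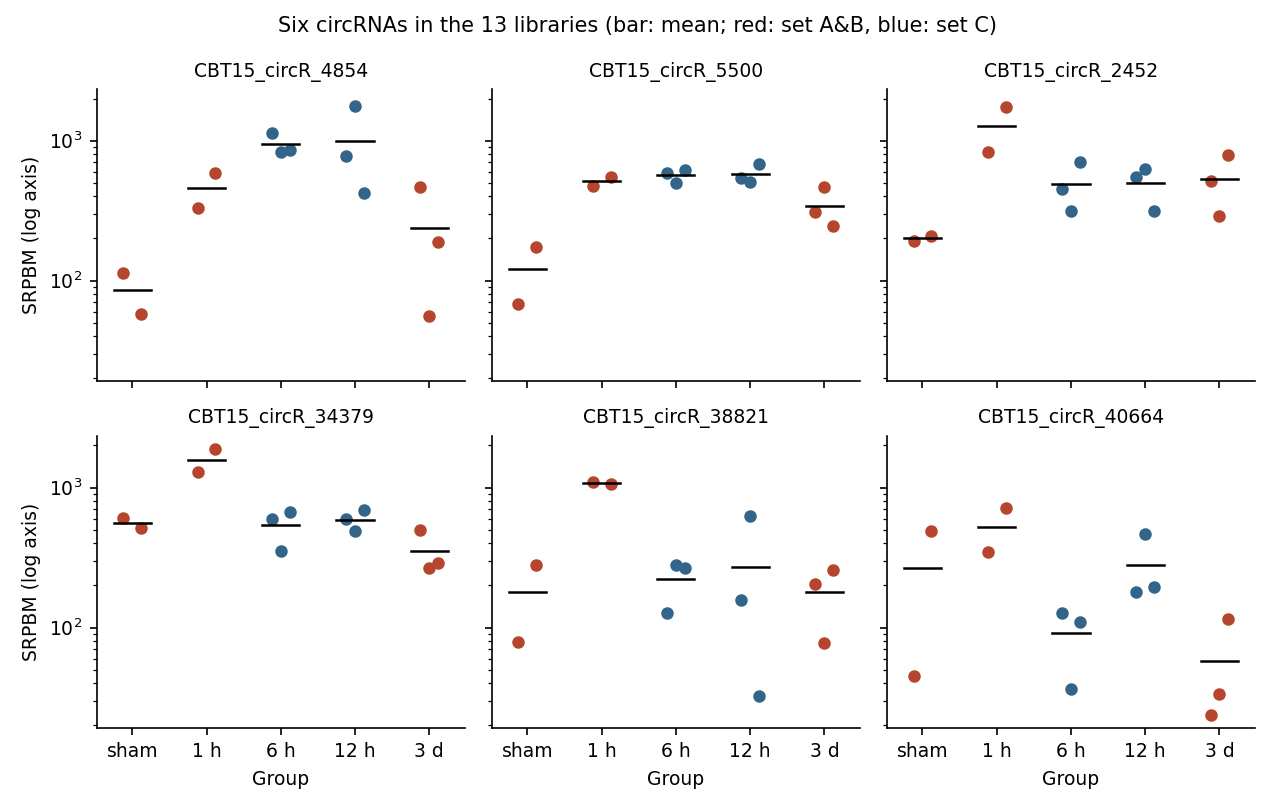
The 5 called members and CBT15_circR_5500 in the 13 libraries, with the group on the x axis and SRPBM on a log y axis; each dot is a library (red A&B, blue C) and the bar is the group mean. CBT15_circR_4854 is highest at 6 h and 12 h, CBT15_circR_5500 lies between 245 and 682 SRPBM at all times after modelling, and the other 4 have their highest group mean at 1 h.

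Within the C libraries, 12 h against 6 h gave 0 called members, beside a background of 0.0301%. Limma found 11 members with an unadjusted p under 0.05 (0.940%), against 4.07% of all circRNAs tested, 1.58% of the 886 and 1.25% of the 2880. The members' count was 4 without 6 h replicate 2 and 17 without 12 h replicate 2, and voom also called 0. The members' median log2 change was -0.04 (quartiles -0.36 and 0.26), and 0.02 with median-ratio scaling. CBT15_circR_28819 had the smallest p on the higher side, at 195, 24.1 and 36.6 SRPBM at 6 h and 179, 170 and 292 at 12 h. CBT15_circR_40664 followed with 126, 36.2 and 110 SRPBM at 6 h and 179, 465 and 195 at 12 h. On the lower side, CBT15_circR_16840 lay at 345, 555 and 463 SRPBM at 6 h and at 78.3, 453 and 64.9 at 12 h, and CBT15_circR_18772 at 770, 748 and 731 and at 492, 204 and 325 (limma adjusted p = 1 for each of the 4).

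With all 15 libraries in the fit, the zeros that the rule chose entered the comparisons with sham and with 1 h. The members' median log2 change against sham was then 1.41 at 6 h, 1.35 at 12 h and 1.22 at 3 d, in place of 0.43, 0.37 and 0.21, and at 1 h, where each group held a zero, it was 0.26 in place of 0.39. At 3 d against 1 h it was 0.94 in place of -0.16. The p-values of members in this fit rest on those zeros, so they are no test of the members. The 886 circRNAs listed in every library moved from 0.29 to 0.31 at 6 h.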

How the data were processed

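Whole blood of male rats was sequenced in 15 libraries, from total RNA extracted with PAXgene and built into NEBNext Ultra libraries for paired-end reads, per the labels' protocols. The authors deposited a signal per circRNA and library in SRPBM, per the file's name from find_circ. Bowtie 0.12.2 and Rnor_6.0 are named, with no role, per the submitters' processing notes. Calling thresholds: not given in the sources used here. All 15 columns were matched to a sample by title.

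Groups were compared in R 4.3.3 with limma 3.58.1 (eBayes, trend on) on log2(SRPBM + 23.0), where 23.0 is the median of the 13 libraries' smallest values above 0. Changes of low circRNAs come out too small on this scale. All 5 groups entered 1 fit, and SEs lean on circRNAs of like abundance. The fit was tested on simulated data. Sham and 1 h had 2 libraries each. The filter kept circRNAs listed in 3 or more of the 13.

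The members, the rule for named circRNAs and the tests were chosen with earlier results of these data known. Named were, per comparison, the 2 members in each direction with the smallest p, called or not, the 4 with the smallest p across groups, the 5 highest, the 2 lowest, the 2 steadiest and the 2 most variable members, and circRNAs at the edges of the rule. Reads recovered from the steps between values gave depths; PCR copies are not independent molecules, so counting error is a lower limit. The planned count test was not run; limma's voom on these reads was added after the data were seen. The other alternatives were 2 pseudocounts, 2 filters, 3 scalings, no trend, a replicate block, all 15 libraries and each library left out.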

Additional observations from a re-analysis of the deposited data

How the results depend on the processing

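Leaving out 1 of the 13 libraries at a time gave median log2 changes of the members from -0.062 to 0.76 at 1 h against sham, -0.036 to 0.85 at 6 h, -0.072 to 0.76 at 12 h and -0.24 to 0.61 at 3 d, with sham replicate 1 at the low end and sham replicate 3 at the high end each time. It gave -0.31 to -0.06 at 3 d against 1 h and -0.19 to 0.13 at 12 h against 6 h. Members called ranged from 1 to 2 across the groups, 0 to 1 at 1 h, 1 to 2 at 6 h, 0 to 1 at 12 h and 0 to 4 at 3 d against 1 h, and stayed at 0 at 3 d against sham and at 12 h against 6 h. The ratio of member to all-15 medians ranged from 0.252 to 0.265, and was 0.0605 with means. Where a group kept 1 library, it was assumed to vary like the others.

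With a pseudocount of 1 SRPBM, and without the trend, limma called 0 members across the groups, 0 at 1 h, 6 h and 12 h against sham and 0 at 3 d against 1 h. With 10 times the pseudocount it called 4 across the groups, 5 at 1 h and 5 at 3 d against 1 h. With no filter it called 0 at 1 h, 6 h, 12 h and 3 d against 1 h, and with only circRNAs above 0 in all 13 libraries 0 at 1 h and 1 at 3 d against 1 h. Scaled to total circRNA signal it called 0 at 1 h, 0 at 12 h and 5 at 3 d against 1 h, with medians of 0.85 at 1 h and -0.90 at 3 d against 1 h. Scaled without the 10 highest it called 0 in both, with medians of -0.066 and 0.24. Median-ratio scaling called 0 in both, with a median of 0.017 at 1 h. All 15 libraries gave 0 calls across the groups, at 1 h, 6 h and 12 h and at 3 d against 1 h, with medians of 1.41, 1.35 and 1.22 at 6 h, 12 h and 3 d against sham and 0.94 at 3 d against 1 h; CBT15_circR_31076 at 12 h against sham turned to 0.091, the only reversal among the named members. The outcome for members with all 15 libraries rests on the zeros of the rule and is no test. Voom called 2 at 1 h, 0 at 6 h and 0 at 12 h. Over all circRNAs tested, calls ranged over the alternatives from 0 to 358 across the groups (100 as reported), 0 to 237 at 1 h (36), 0 to 38 at 6 h (24), 0 to 33 at 12 h (20) and 0 to 26 at 3 d (7) against sham, 0 to 331 at 3 d against 1 h (65) and 0 to 16 at 12 h against 6 h (5); voom gave the highest count in all but 6 h. Causes were not tested.

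With the replicate number as a block, limma called 1 member at 3 d against 1 h in place of 3, with CBT15_circR_38821 and CBT15_circR_40664 lost, and changed no other count of members. The numbers are not shown to pair the libraries. Same-numbered libraries of different groups had correlated deviations over 0.1 in 0 of 22 pairs (range -0.05 to 0.10). Different-numbered ones had them in 0 of 45 (range -0.10 to 0.06). Deviations cancel out within each group, and in a group of 2 libraries they mirror each other. The pairs are therefore not independent of one another, least of all those with sham or 1 h. Best correlation with their own number held for 7 of 13 libraries, with no expected count to set it against. The planned edgeR test was not run. At a median of 16 reads, changes within the counting error of a member are not detectable.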
